A study of Bos taurus with 6 samples.

Results

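The AP-1 and EGR immediate early factors are 10 genes here: FOS, FOSB, FOSL1 and FOSL2 of the Fos family, JUN, JUNB and JUND of the Jun family, and ATF3, EGR1 and IER2. Every probe set that carries 1 of these symbols alone in the platform annotation was taken. All 10 genes had at least 1 such probe set, and 23 of the 24016 probe sets tested belong to them. The study profiled cow cumulus cells, which enclose the oocyte in the follicle, on 6 Affymetrix arrays. All pools came from ovaries of crossbred Bos indicus x Bos taurus cows collected at slaughter, from complexes with compact cumulus and even cytoplasm, whose cumulus cells were stripped off by pipetting. The large-follicle group holds 3 pools from follicles at least 8 mm wide, which the submitters call competent, and the small-follicle group holds 3 pools from follicles 1 to 3 mm wide, which they call incompetent. Each pool was run on 1 array. The labels state neither the age of the cows nor how many animals stand behind a pool, and p-values measure only the spread between these pools.

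AP-1 is a dimer of basic leucine zipper proteins, usually a Fos protein with a Jun protein, that binds a short palindromic DNA element in promoters and enhancers. Many of its genes, together with the zinc finger factor EGR1, are immediate early genes: they are transcribed within minutes of a growth factor, gonadotropin or stress signal, through transcription factors already present in the cell, and their mRNAs are short-lived. Tissue handling and cell dissociation are also known to induce them. In the follicle, EGR1 and AP-1 proteins are known for their part in the response of granulosa cells to the ovulatory gonadotropin surge.

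Values are log2 signals made with RMA, so a difference of 1 is a doubling of signal. Array medians lay between 5.64 and 5.68. Differences are large minus small follicle, fitted with limma over all probe sets, and a probe set is called where its Benjamini-Hochberg adjusted p is below 0.05. Of all probe sets tested, 12.9% were called, 5.72% higher and 7.16% lower, and the groups did not overlap in 30.9%. The granulosa and cumulus markers INHBA, CYP11A1 and CYP19A1 were bright in both groups, with means of 14.07, 11.33 and 12.25 in large-follicle and 12.93, 9.61 and 10.12 in small-follicle arrays. These markers themselves differed: of 10 measured, 6 rose, among them these 3, 1 fell (GATM by 1.20, named after its value was seen) and 3 did not pass. Not all of the 10 were bright: FOXL2, which did not pass, averaged 4.89 in large-follicle and 4.58 in small-follicle arrays. The median of all probe sets was 5.67. Of 15 leukocyte markers measured, 3 were under 3.83, the lower quartile of all probe sets.

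The 10 factors did not move as a block between follicle sizes. FOS, the founding member of the Fos family, was lower in cumulus cells of large follicles by both of its probe sets, 1.79-fold and 1.58-fold. JUNB, a Jun protein that often opposes JUN in growth control, was 1.95-fold higher there, and FOSL1, a Fos protein without the C-terminal activation domain of FOS, was 1.55-fold higher. No probe set of the other 7 genes passed the test. Of the 23 probe sets 2 rose, 2 fell and 19 did not pass, so 17.4% were called against 12.9% of all probe sets. The groups did not overlap in 9 of the 23, or 39.1%, against 30.9% of all. The median difference over the 23 was 0.05, against 0.01 over all probe sets, with 12 above and 11 below 0. None of the called differences reached 2-fold. In pooled cells, fewer cells of a type and less RNA per cell cannot be told apart.

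**Figure D1:**
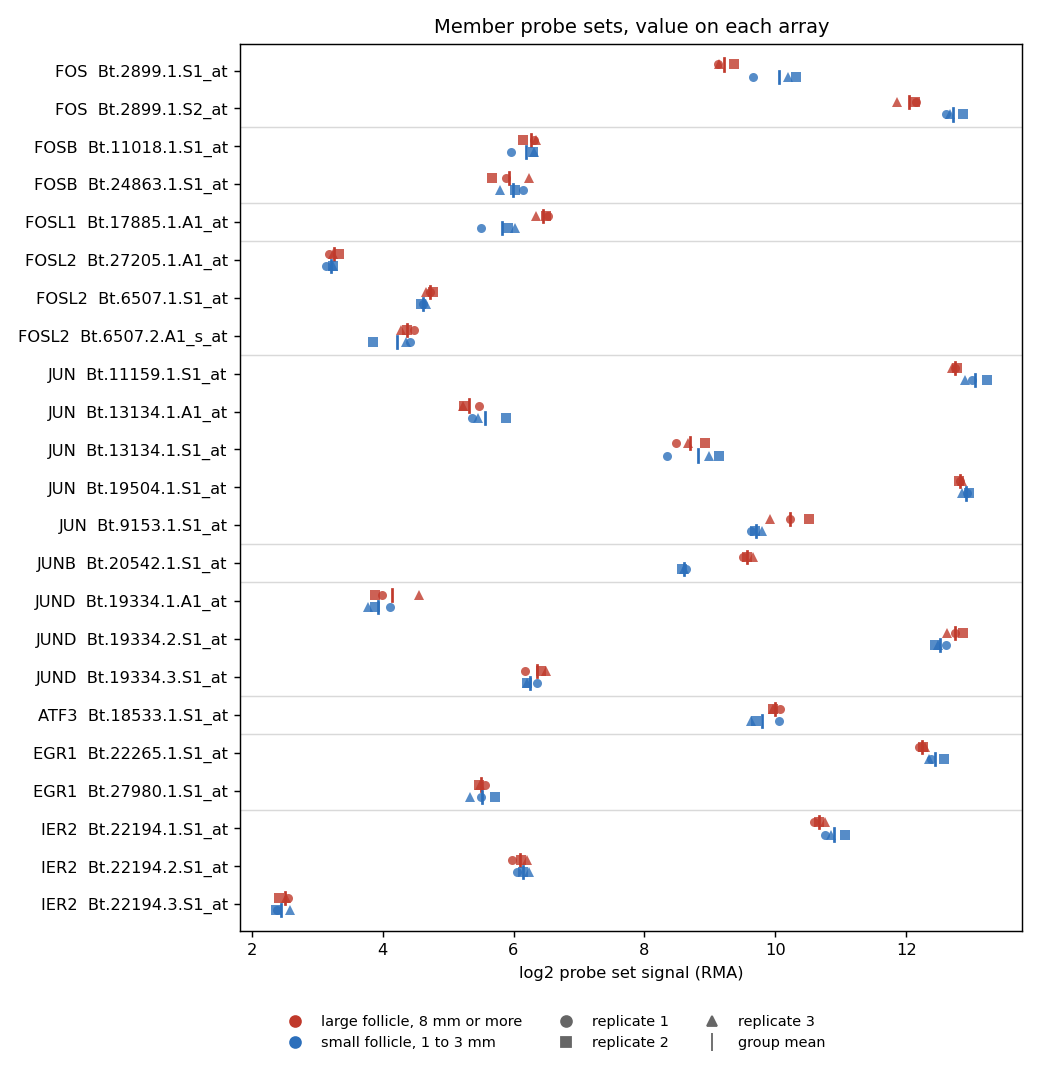
The x axis is the log2 probe set signal, each row is a probe set of a member gene, red marks are the 3 large-follicle arrays, blue marks the 3 small-follicle arrays, and vertical bars the group means. The groups stand apart for both FOS probe sets (blue to the right), and for FOSL1 and JUNB (red to the right), while the marks of FOSB and most other rows overlap.

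FOS encodes the protein that gives AP-1 its strong but brief activity after a signal. Its brighter probe set, Bt.2899.1.S2_at, read 12.15, 12.13 and 11.86 in large-follicle replicates 1, 2 and 3 and 12.60, 12.86 and 12.67 in the small-follicle replicates. All 3 small-follicle arrays lay above all 3 large-follicle arrays. The means were 12.05 ± 0.16 and 12.71 ± 0.14 (SD, n = 3 each), a difference of -0.66 ± 0.12 (SE, limma adjusted p = 0.0106). The other probe set, Bt.2899.1.S1_at, read 9.13, 9.37 and 9.14 in large-follicle arrays against 9.66, 10.31 and 10.19 in small-follicle arrays, again without overlap. Small-follicle replicate 1 was the lowest of its group on both probe sets. The difference was -0.84 ± 0.17 (limma adjusted p = 0.0167). That call depended on single arrays: the probe set no longer passed when large-follicle replicate 1 (-0.80), large-follicle replicate 3 (-0.80) or small-follicle replicate 2 (-0.71) was left out, whereas the brighter probe set was called in all 6 fits that left out 1 array.

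FOSL1, also known as Fra-1, is usually induced later than FOS and lasts longer. Its only probe set, Bt.17885.1.A1_at, read 6.52, 6.49 and 6.35 in large-follicle arrays and 5.51, 5.92 and 6.02 in small-follicle arrays. The groups did not overlap, and small-follicle replicate 1 was the lowest array. The means were 6.45 ± 0.09 and 5.82 ± 0.27 (SD, n = 3 each), a difference of 0.64 ± 0.14 (SE, limma adjusted p = 0.0237). The call did not hold without large-follicle replicate 1 (0.60), large-follicle replicate 2 (0.62) or small-follicle replicate 2 (0.69).

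The other Fos genes did not pass. FOSB, an immediate early gene like FOS, gave 6.32, 6.14 and 6.34 in large-follicle arrays against 5.96, 6.29 and 6.32 in small-follicle arrays on Bt.11018.1.S1_at, a difference of 0.08 with a 95% interval from -0.21 to 0.36. On its other probe set, Bt.24863.1.S1_at, the difference was -0.06, with an interval from -0.42 to 0.31. The groups overlapped on both, and the intervals exclude a change in FOSB signal as large as the point estimate for either FOS probe set. FOSL2, or Fra-2, was read by 3 probe sets with differences of 0.05, 0.10 and 0.17. All 3 FOSL2 probe sets were dim, with group means between 3.21 and 4.72, and Bt.27205.1.A1_at was under the lower quartile of 3.83.

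**Figure D2:**
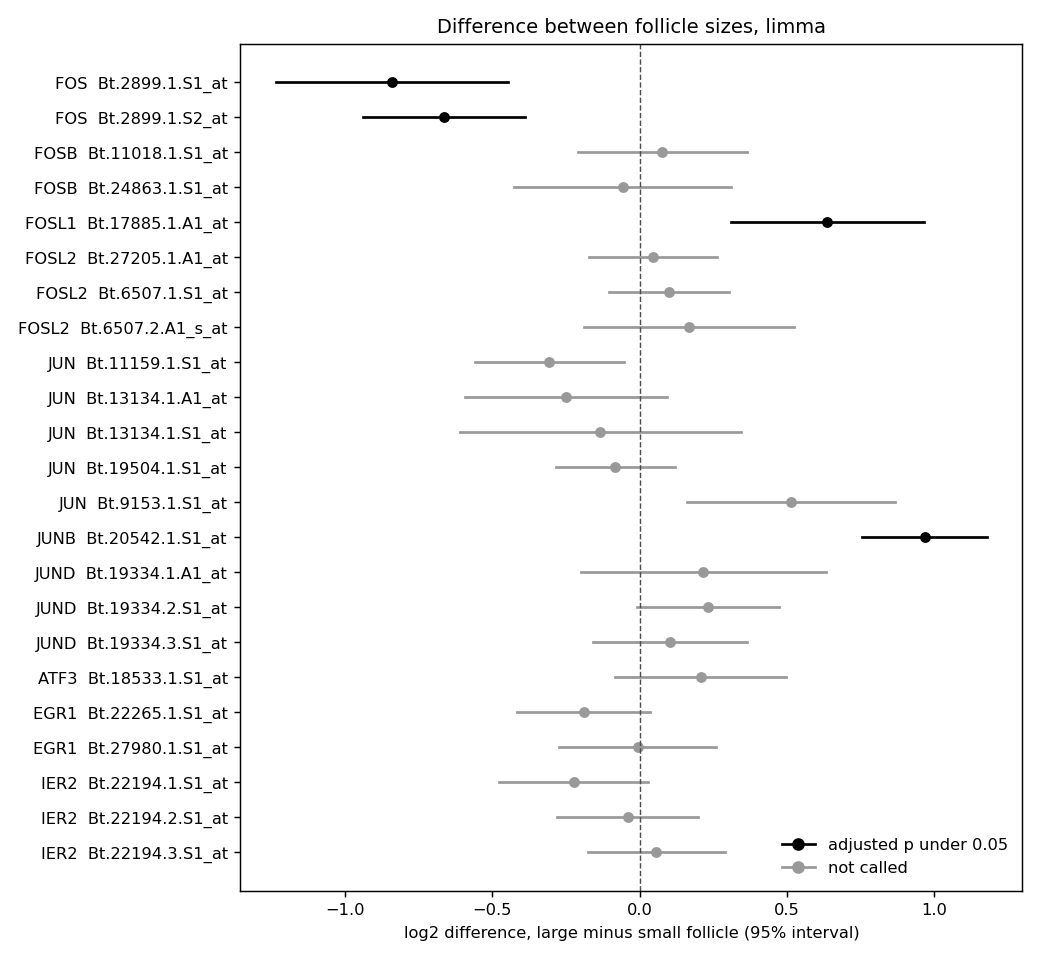
The x axis is the log2 difference, large minus small follicle, from limma, each row is a member probe set, points are estimates and lines 95% intervals, with the 4 called probe sets in black and the 19 others in grey. FOS lies at -0.84 and -0.66, FOSL1 at 0.64 and JUNB at 0.97, and the 5 probe sets of JUN spread from -0.31 to 0.51.

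JUNB had the largest difference among the 10 genes. Its only probe set, Bt.20542.1.S1_at, read 9.50, 9.56 and 9.66 in large-follicle arrays and 8.64, 8.57 and 8.61 in small-follicle arrays. The gap between the groups was many times the spread within either. The means were 9.57 ± 0.08 and 8.61 ± 0.04 (SD, n = 3 each), a difference of 0.97 ± 0.09 (SE, 95% interval 0.76 to 1.18, limma adjusted p = 0.00122). The difference ran from 0.92 to 1.02 over 17 other settings and was called in all of them.

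JUN, the c-Jun subunit that can bind DNA as a homodimer or with a Fos protein, was read by 5 probe sets that did not point the same way. On Bt.11159.1.S1_at the values were 12.75, 12.77 and 12.69 in large-follicle arrays and 13.00, 13.23 and 12.90 in small-follicle arrays, lower in large follicles without overlap, with a difference of -0.31 ± 0.11 (SE, limma adjusted p = 0.114). On Bt.9153.1.S1_at they were 10.22, 10.52 and 9.91 against 9.62, 9.69 and 9.80, higher in large follicles without overlap, with a difference of 0.51 ± 0.15 (limma adjusted p = 0.0654). Neither passed the threshold. The second one was called without large-follicle replicate 3 (0.67), with cyclic loess scaling (0.53) and with array weights (0.52). It was also called when only probe sets above the median of means were kept (0.51). With a trended robust prior in limma both were called, in opposite directions (adjusted p = 0.0395 for Bt.11159.1.S1_at and 0.0387 for Bt.9153.1.S1_at). The other probe sets read -0.25, -0.13 and -0.08, all with overlapping groups. On the very bright Bt.19504.1.S1_at all 6 arrays lay between 12.81 and 12.95, and its interval of -0.29 to 0.12 leaves little room for a change in that signal. Which part of the JUN transcript each probe set reads was not analysed here, and no direction for JUN is drawn from them.

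JUND, the Jun protein that is present in resting cells and least dependent on stimulation, was higher in sign on all 3 of its probe sets and passed on none. The brightest, Bt.19334.2.S1_at, read 12.74, 12.87 and 12.62 in large-follicle arrays and 12.61, 12.44 and 12.48 in small-follicle arrays. The groups were separated by 0.01 between the lowest large-follicle and the highest small-follicle value. The difference was 0.23 ± 0.10 (SE, 95% interval -0.01 to 0.47, limma adjusted p = 0.199), and the others were 0.22 and 0.10.

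ATF3, EGR1 and IER2 did not pass on any probe set. ATF3, a stress-induced bZIP factor that can dimerise with Jun proteins and often represses, read 10.07, 9.96 and 9.97 in large-follicle arrays against 10.05, 9.70 and 9.63 in small-follicle arrays. Small-follicle replicate 1 lay with the large-follicle arrays, and the difference was 0.21 ± 0.13 (95% interval -0.08 to 0.50, limma adjusted p = 0.352). EGR1, the zinc finger factor induced by the same signals as FOS, read 12.20, 12.25 and 12.28 against 12.38, 12.57 and 12.35 on its bright probe set Bt.22265.1.S1_at. The small-follicle arrays were all higher, by a difference of -0.19 ± 0.10 (95% interval -0.42 to 0.04, limma adjusted p = 0.268), an interval that does not reach the point estimate of either FOS probe set. The dimmer EGR1 probe set differed by -0.01. IER2, a small nuclear immediate early protein, read 10.59, 10.66 and 10.75 against 10.76, 11.06 and 10.85 on Bt.22194.1.S1_at, also higher in each small-follicle array. Its difference was -0.22 ± 0.11 (95% interval -0.48 to 0.03, limma adjusted p = 0.240). The other IER2 probe sets differed by -0.04 and 0.06, and the second of these, with means of 2.50 and 2.45, was also under the lower quartile of all probe sets.

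Among the 19 probe sets that did not pass, the groups did not overlap in 5. These were 2 of JUN and 1 each of JUND, EGR1 and IER2. Of all probe sets, called ones included, 30.9% did not overlap, so the count does not set the members apart. The 95% interval lay within 0.5 of 0 in 13 of the 19, and the outermost interval bounds were -0.61 and 0.87. At an unadjusted p under 0.05, 6 of the 23 probe sets passed, against 27.0% of all probe sets. Read as the mean of all its probe sets, each gene kept its status: FOS differed by -0.75 ± 0.13 (SE), FOSL1 by 0.64 ± 0.14 and JUNB by 0.97 ± 0.09, and JUN (-0.05), JUND (0.18), EGR1 (-0.10), IER2 (-0.07), ATF3 (0.21), FOSB (0.01) and FOSL2 (0.10) did not pass.

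The arrays of a group also differed among themselves. Small-follicle replicate 2 held the highest value of all 6 arrays on 9 of the 23 probe sets, among them both FOS probe sets, both EGR1 probe sets, the brightest of IER2 and 4 of the 5 JUN probe sets. Small-follicle replicate 1 held the highest value on 0. The lowest value fell to each array on 2 to 5 of the probe sets. The SD was larger among small-follicle than among large-follicle arrays in 13 of the 23 probe sets, against 48.5% of all probe sets.

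An index of RNA integrity and the heat shock genes were read beside the members. The index, the mean log2 signal at the 3' end minus that at the 5' end of 6 control transcripts, was 2.15, 1.77 and 2.01 in large-follicle arrays and 2.68, 2.53 and 2.16 in small-follicle arrays, a mean difference of -0.48. A 2-sided exact permutation test gave p = 0.1, which is the lowest value possible with 3 arrays in each group. When the index was added to the fit, JUNB was still called, at 0.96 ± 0.15 (SE), while FOS at -1.19 ± 0.24 and -0.68 ± 0.20 and FOSL1 at 0.37 ± 0.20 were not. The SE of each of these probe sets grew, and neither FOS difference was smaller in size than in the main fit. The index did not overlap between the groups, so this fit can hardly tell it apart from follicle size. Heat shock genes, which respond to warming, cooling and handling, were lower in large follicles along with FOS: 8 of 13 fell, 1 rose and 4 did not pass, with a median of -0.45 against 0.01 over all genes. Each gene of these lists is read from its probe set with the highest mean, and on that reading 7.08% of all genes were called higher and 8.30% lower. The co-chaperone DNAJB1 differed by -2.79, and the chaperones HSPA1A, HSPH1 and HSPA8 by -2.30, -1.21 and -0.81. DNAJB1 was called on 2 of 2 probe sets, HSPA1A on 4 of 6, HSPH1 on 1 of 4 and HSPA8 on its only one. The mitochondrial chaperonin HSPD1 differed by -0.45, and did not pass when large-follicle replicate 1 (-0.45) or 2 (-0.44), or small-follicle replicate 1 (-0.44) or 2 (-0.41), was left out. The part of either in the FOS and FOSL1 results was not tested further.

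Leukocyte markers were higher in sign, most of all in 1 array. All 15 measured were above 0, 2 rose (CORO1A by 0.62 and LCP1 by 0.89) and 13 did not pass, with a summed linear signal of 377 to 749 in large-follicle and 319 to 431 in small-follicle arrays. Their mean deviation from each gene's average was 0.62, 0.02 and -0.09 in large-follicle replicates 1, 2 and 3 and -0.25, -0.33 and 0.02 in the small-follicle ones, so the groups overlapped. The mean difference was 0.37, and 0.16 without large-follicle replicate 1. The share called, 13.3%, lies near the 15.4% of all genes called in either direction. With the mean of these markers in the fit, JUNB was called at 1.02 and the brighter FOS probe set at -0.73, whereas the other FOS probe set (-0.81) and FOSL1 (0.53) were not. None of the theca, fibroblast and smooth muscle, erythroid or oocyte markers measured (5, 7, 3 and 6 genes) passed. Not passing does not mean absent. Of the 5 genes listed as theca markers, INSL3 and HSD3B1 averaged 9.40 and 9.46 over all arrays. STAR, CYP17A1 and LHCGR averaged 5.39, 4.86 and 3.69. Which cells these signals come from was not tested. The smooth muscle marker MYH11 averaged 9.54, and the fibroblast markers LUM and COL1A2 averaged 8.06 and 5.12. Summed linear signals of theca markers were 1445 to 1619 in large-follicle and 1080 to 1811 in small-follicle arrays. For fibroblast and smooth muscle they were 1085 to 1389 and 1019 to 2030. Of these 7 markers 6 were below 0 and 1 above. The mean difference of the 7 was -0.33, and -0.06 without small-follicle replicate 3. Of 5 endothelial markers TEK was lower, at -0.57 on a dim probe set with a mean of 3.44 in large-follicle arrays.

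**Figure D3:**
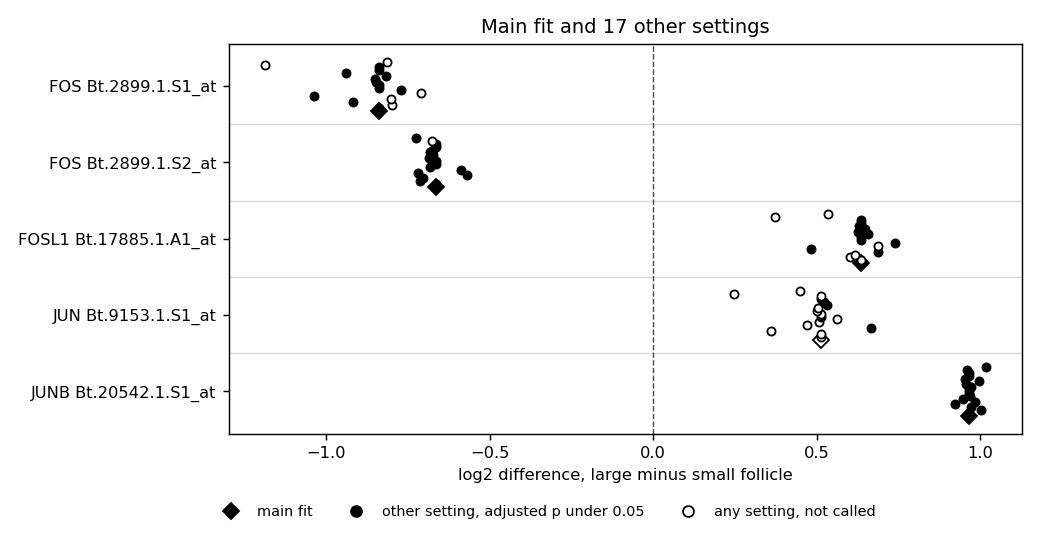
The x axis is the log2 difference, large minus small follicle, and each mark is the main fit (diamond) or 1 of 17 other settings (circles) for 5 member probe sets, filled where the adjusted p is below 0.05. The JUNB marks stay between 0.92 and 1.02 and are all filled, while those of FOSL1 run from 0.37 to 0.74 with 6 open, and those of JUN Bt.9153.1.S1_at are filled in 5 settings.

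The other immediate early and early response genes also went both ways. Of 29 listed, 19 could be read: 5 rose, 2 fell and 12 did not pass, with a median of 0.05. ZFP36, an RNA-binding protein that destabilises short-lived mRNAs, averaged 10.26 ± 0.12 in large-follicle and 9.25 ± 0.26 in small-follicle arrays (SD, n = 3 each), a rise of 1.01. TRIB1, a pseudokinase that regulates C/EBP proteins and MAP kinase signalling, rose by 1.27 on its brighter probe set and read 0.12 on a dim one. IER3, an early response gene of survival signalling, rose by 1.02. KLF10, induced early by TGF-beta, rose by 1.15, but did not pass when large-follicle replicate 1 (1.18) or 2 (0.92), or small-follicle replicate 1 (0.97) or 2 (1.11), was left out. The orphan nuclear receptors NR4A1 and NR4A2, both gonadotropin-inducible in granulosa cells, went opposite ways. NR4A1 rose by 0.55, but was called in 1 of the 6 fits that left out an array, the one without small-follicle replicate 3 (0.70). The NR4A2 probe set read for the gene fell by 0.50, was called in 2 of those 6 fits, without large-follicle replicate 1 (-0.59) and small-follicle replicate 3 (-0.52), and another of about the same signal read 0.18. KLF4, named after its value was seen, fell by 1.41 and was called in 1 of the 6 fits, without small-follicle replicate 3 (-1.85). MYC, at -0.31, did not pass.

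**Figure D4:**
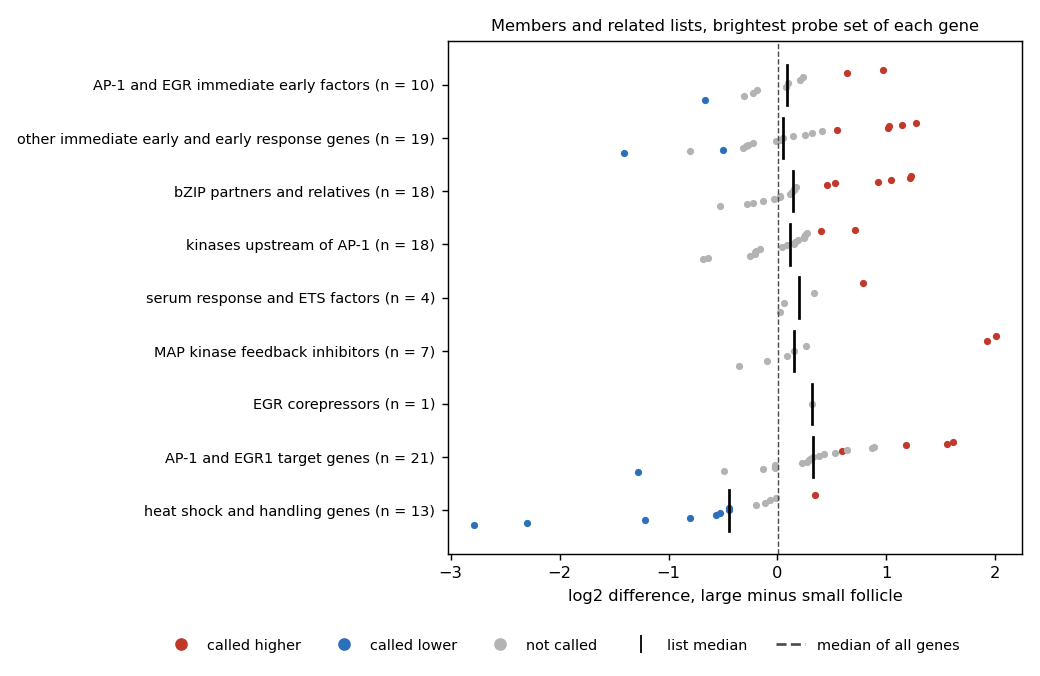
The x axis is the log2 difference, large minus small follicle, of each measured gene read from its brightest probe set, and each row is a gene list with its median as a black bar, called genes in red (higher) or blue (lower). Heat shock genes lie mostly to the left, with a median of -0.45, the 2 called feedback inhibitors stand at 1.92 and 2.01, and the 10 members run from -0.66 to 0.97.

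The bZIP relatives that can pair with or compete against AP-1 proteins were higher where they were called. Of 28 listed, 18 had a probe set, of which 6 rose, 0 fell and 12 did not pass, with a median of 0.14. CEBPD, a C/EBP factor of acute responses, read 11.48, 11.44 and 11.25 in large-follicle arrays against 10.25, 10.04 and 10.21 in small-follicle arrays, and its 3 probe sets rose by 1.22, 1.47 and 0.91. DDIT3, a stress-induced C/EBP relative, rose by 1.22. The small Maf proteins MAFF and MAFG, which lack an activation domain, rose by 1.04 and 0.53. CEBPB, which mediates the ovulatory response of granulosa cells, rose by 0.93 on its brightest probe set, a call that held in 1 of the 6 fits that left out an array, without large-follicle replicate 3 (1.20). Its other probe set, of about the same signal in large-follicle arrays, rose by 1.56.

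Upstream of the members, of 25 listed kinases and Ras proteins 18 had a probe set, of which 2 rose, 0 fell and 16 did not pass, with a median of 0.12. MAP2K1, a MAP kinase kinase, averaged 8.79 ± 0.10 against 8.07 ± 0.06 (SD, n = 3 each), a rise of 0.72. RPS6KA1, a kinase of the ribosomal S6 kinase family, rose by 0.40, a call lost without any 1 of the 6 arrays (0.33 to 0.44). The MAP kinase gene MAPK3, at 0.16, and the JNK1 gene MAPK8, at 0.04, did not pass. Of the serum response and ETS factors, the group of SRF, which binds the promoters of FOS and EGR1, 4 of 11 listed were measured, 1 rose and 3 did not pass. ETS2 rose by 0.78 on the brighter of 2 dim probe sets, the other reading 0.02, and SRF, at 0.33 without overlap, did not pass. The median of the 4 was 0.20.

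Of the feedback inhibitors of MAP kinase signalling, DUSP7 and SPRY1 were higher in large follicles. Of 7 measured of 17 listed, 2 rose and 5 did not pass, with a median of 0.15. DUSP7, a phosphatase that inactivates MAP kinases, read 9.53, 9.46 and 9.52 in large-follicle arrays and 7.37, 7.35 and 7.76 in small-follicle arrays, a rise of 2.01 ± 0.13 (SE, limma adjusted p = 0.000593). SPRY1, a Sprouty protein that restrains receptor tyrosine kinase signalling, read 8.56, 8.68 and 8.43 against 6.40, 6.37 and 7.14, a rise of 1.92 ± 0.20. DUSP1, an immediate early phosphatase of JNK and p38, differed by -0.10 and did not pass. NAB2, a corepressor that binds EGR1, differed by 0.32 ± 0.11 without overlap and did not pass (limma adjusted p = 0.098), and its other probe set read 0.01.

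Genes known as targets of AP-1 or EGR1 also went both ways. Of 21 measured of 24 listed, 4 rose, 1 fell and 16 did not pass, with a median of 0.33. The mean deviation of the 21 from each gene's average was 0.48, 0.07 and 0.03 in large-follicle replicates 1, 2 and 3 and -0.32, -0.20 and -0.06 in the small-follicle ones, so large-follicle replicate 1 stood apart. The mean difference was 0.39, and 0.24 without that array. The 1 that fell was PTGS2, the inducible prostaglandin synthase, which read 5.49, 5.02 and 4.67 in large-follicle arrays against 6.32, 6.51 and 6.19 in small-follicle arrays. Its difference was -1.28 ± 0.20 (SE), and its 2 other probe sets, both dim, read 0.06 and -0.14. F3, the tissue factor that starts coagulation, rose by 1.61, and VEGFA, the angiogenic factor, by 1.18 and 1.16 on its 2 probe sets. TIMP1, an inhibitor of matrix metalloproteinases, rose by 1.56, but did not pass when large-follicle replicate 1 (1.32) or 3 (1.60), or small-follicle replicate 2 (1.61), was left out. GADD45A, a growth arrest and stress gene, rose by 0.59, a call that held in 1 of the 6 fits that left out an array, without large-follicle replicate 3 (0.71). Over the lists other than the members, 101 genes were measured and 32 called, where 15.4% of all genes were called. Those lists were chosen with earlier results of these data known, so no enrichment is drawn from these shares. The heat shock list had the largest share called, 69.2%. Of the 32, 18 were called in all 6 fits that left out 1 array. With the index of RNA integrity in the fit 5 were called and all 32 kept their sign, but 10 became over 1.5 times smaller. Among these 10 were KLF10 (0.41), NR4A1 (0.15), KLF4 (-0.61), HSPH1 (-0.60), ZFP36 (0.67) and VEGFA (0.71).

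The array profiles most like those of JUNB and FOS were found by Pearson correlation over the 6 arrays, which share the group difference, and are given as a description. For JUNB these were ATP6V1D (r = 0.999), a subunit of the vacuolar proton pump, which rose by 0.36, BTBD6 (r = 0.997), which rose by 0.85, and ZMYND12 (r = 0.997), which rose by 1.13. For the brighter FOS probe set they were CPOX (r = 0.995), an enzyme of haem synthesis, at -0.80, EXOC6 (r = 0.994), a subunit of the exocyst, at -0.24, which did not pass, and MGP (r = 0.994), the matrix Gla protein, at -0.54.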

How the data were processed

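RNA from pooled cumulus cells was hybridised to Affymetrix bovine arrays, 3 per group. Signals were deposited on a log2 scale after RMA by the authors, as the submitters' processing notes state, with no software version or settings named. Of 24128 probe sets, 112 controls were left out. The annotation gives 13292 of the other 24016 a single symbol, 86 several and 10638 none, and 13263 matched the RefSeq gene table of ARS-UCD2.0, used for names only. The group difference came from limma 3.58.1 (R 4.3.3, lmFit and eBayes, no block or filter), 2-sided, with Benjamini-Hochberg adjustment over 24016 probe sets at 0.05 and 8.28 total degrees of freedom. The number of arrays limits the precision.

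In related lists a gene stands for its brightest probe set by mean. All member probe sets were named, up to 5 called genes with the smallest p per related list, a fixed set whatever their result (NAB2, NR4A1, DUSP1, SRF, MYC, MAPK3, MAPK8, DDIT3, PTGS2, with NAB1 not measured and 1 gene not reported here), up to 3 called markers per cell type, and the 3 genes most correlated with JUNB and FOS. Outside these rules, GATM, KLF4 and the uncalled markers FOXL2, INSL3, HSD3B1, STAR, CYP17A1, LHCGR, MYH11, LUM and COL1A2 were named with their values known. The members and lists were chosen with earlier results of these data known. The procedure was also run on simulated data, whose results are not given here and are not used for any call. Other settings left out each array, added a replicate block, or changed filters, scalings, array weights, another prior, probe set type and covariates. Figures used python 3.11.15 and matplotlib 3.10.9.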

Additional observations from a re-analysis of the deposited data

How the results depend on the processing

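JUNB kept its direction and its call in all 17 other settings. The brighter FOS probe set kept both in 16, the other FOS probe set in 12 and FOSL1 in 11, and none of these changed sign, which leaving out an array cannot do where the groups do not overlap. Leaving out 1 array gave 787 to 1142 probe sets higher and 828 to 1337 lower, against 1374 and 1720 with all arrays, 1 to 3 member probe sets higher and 1 to 2 lower, and 19 to 27 related genes called, against 32. The titles number the arrays 1 to 3 in both groups. Deviations of same-numbered arrays correlated at -0.002, -0.05 and -0.34, and those of differently numbered arrays ran from -0.28 to 0.32. With 3 arrays per group these values cannot decide whether the numbers pair the arrays, which the titles do not state. With the replicate block 1034 probe sets were lower, 930 higher and 1 member probe set was higher. With the 3'-minus-5' index added 99 probe sets were higher and 116 lower, 1 member probe set was higher and 0 lower, and 5 related genes were called. With the leukocyte markers added these counts were 504, 554, 1, 1 and 15. The cause was not tested.

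Sign changes were found only in member probe sets that passed in no setting. Leaving out 1 array, FOSB Bt.11018.1.S1_at ran from -0.038 to 0.14, FOSB Bt.24863.1.S1_at from -0.21 to 0.073, FOSL2 Bt.6507.2.A1_s_at from -0.010 to 0.27, JUN Bt.13134.1.S1_at from -0.37 to 0.025, EGR1 Bt.27980.1.S1_at from -0.098 to 0.092 and IER2 Bt.22194.2.S1_at from -0.093 to 0.022. With the index added, FOSB Bt.11018.1.S1_at read -0.019, FOSB Bt.24863.1.S1_at 0.28, FOSL2 Bt.27205.1.A1_at -0.083, EGR1 Bt.27980.1.S1_at 0.18 and IER2 Bt.22194.3.S1_at -0.0092. With the leukocyte markers added, FOSB Bt.24863.1.S1_at read 0.070, EGR1 Bt.27980.1.S1_at 0.025, IER2 Bt.22194.2.S1_at 0.022 and IER2 Bt.22194.3.S1_at -0.020. Probe sets under the lower quartile, 2 of the 23, have little signal above background, which limits what can be read from them.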
